A study of Mus musculus with 8 samples.

Results

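The interferon-stimulated genes are the transcripts that cells switch on when an interferon binds its receptor, and 39 of them were followed here in the liver of mice that lack *Agpat3*. The list was written as gene symbols, and each gene was read from 1 array probe, the brightest of those whose transcript belongs to that symbol. Of the 39 genes, 37 had such a probe and 36 had a signal that could be tested, out of 14067 genes tested in the whole experiment. *Mx1* and *Mx2* matched no probe. *Oas3* was not well above background on any of the 8 arrays.

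*Agpat3* encodes a lysophosphatidic acid acyltransferase of the endoplasmic reticulum that places docosahexaenoic acid into phospholipids. Total RNA was taken from frozen whole liver of 4 wild-type (WT) and 4 *Agpat3* knockout (KO) mice. All animals were male C57BL/6 mice 10 weeks old, no treatment is named, and the KO was global, so that every cell type of the liver carried it. Each mouse was hybridized to 1 one-color Agilent array. Values are log2 signals after background correction, with 0 at the 75th percentile of each array. A difference is always KO minus WT on this log2 scale.

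Interferons of type I and type III are secreted when a cell detects viral or misplaced nucleic acid. Type I and type III interferons act through receptor-bound JAK kinases and a complex that holds STAT2 and IRF9, which binds a DNA element called ISRE, whereas interferon gamma acts mainly at an element called GAS. The induced genes encode RNA sensors, enzymes that degrade or sequester foreign RNA, membrane and GTPase effectors, antigen-processing proteins and chemokines, and many of them have a low resting level in healthy tissue. In the liver, hepatocytes, Kupffer cells (the resident macrophages) and endothelial cells all respond to interferon.

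The ISRE is visible in the DNA just ahead of several of these genes. These stretches of 150 bases that end at the base before the gene start are shown, taken from RefSeq on GRCm38.p6 and written 5′ to 3′ along the gene. The first pair belongs to *Oasl1*, the only gene of the list that passed the test, and to its relative *Oasl2*. The other stretches belong to *Isg15*, *Ifit1* and *Rsad2*, which are commonly used to read an interferon response. Capitals mark bases that match the ISRE core, which is GAAA, any pair of bases and GAAA again, or its reverse complement. The stretches lie at chr5:114923090-114923239 (plus strand), chr5:114896784-114896933 (plus strand), chr4:156200819-156200968 (minus strand), chr19:34640739-34640888 (plus strand) and chr12:26456453-26456602 (minus strand).
Oasl1: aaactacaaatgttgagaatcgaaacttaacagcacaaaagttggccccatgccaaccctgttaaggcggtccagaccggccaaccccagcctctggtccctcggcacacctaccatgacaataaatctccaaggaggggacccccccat
Oasl2: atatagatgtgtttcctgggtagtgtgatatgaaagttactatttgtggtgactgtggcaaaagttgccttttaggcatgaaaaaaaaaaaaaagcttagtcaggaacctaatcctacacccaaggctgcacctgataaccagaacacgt
Isg15: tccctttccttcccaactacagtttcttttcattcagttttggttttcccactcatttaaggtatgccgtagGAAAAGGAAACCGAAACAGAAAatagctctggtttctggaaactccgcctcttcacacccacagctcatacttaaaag
Ifit1: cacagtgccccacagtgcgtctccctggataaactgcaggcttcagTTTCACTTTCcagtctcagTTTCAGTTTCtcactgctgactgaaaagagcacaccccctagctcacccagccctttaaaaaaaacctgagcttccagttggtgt
Rsad2: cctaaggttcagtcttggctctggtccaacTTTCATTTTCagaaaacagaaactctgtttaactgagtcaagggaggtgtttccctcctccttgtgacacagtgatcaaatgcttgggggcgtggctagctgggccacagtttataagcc

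*Isg15* held 3 overlapping matches that began at −78, −72 and −66 relative to the gene start, *Ifit1* held matches at −104 and −85, and *Rsad2* held 1 match at −120. The stretches of *Oasl1* and *Oasl2* held no match to these letters. A RefSeq window of 300 bases, 250 before and 50 after the start, was found for 30 of the 39 genes. The ISRE core was present on either strand in 15 of these 30 genes, compared with 1079 of 27025 genes with a window (3.99%). The GAS letters TTCNNNGAA were present in 9 of 30 genes (30.0%), compared with 9.55% of all genes with a window. Both motifs were searched on both strands, and several genes held both.

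The labels and the arrays matched. The *Agpat3* signal of the brighter of its probes differed by −6.12 ± 0.14 (SE, n = 4 and 4) on the log2 scale, with an adjusted p of 4.46e-07 in limma with Benjamini-Hochberg adjustment. The 75th percentile of the signal was between 261.3 and 308.6 intensity units per array over a local background of 27 to 32, and no spot was saturated. Hepatocyte markers were all measured and their summed level overlapped between the genotypes (4979 to 5579 in WT and 5042 to 5371 in KO, in multiples of the 75th percentile). All 8 arrays were on 1 slide and were scanned together, but the WT arrays filled slide row 1 and the KO arrays slide row 2, and an effect of the row cannot be told apart from genotype. In whole liver RNA, fewer cells of a type and less RNA per cell cannot be told apart either.

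*Oasl1* was the only interferon-stimulated gene that was higher in KO liver by more than 1.5-fold with an adjusted p below 0.2 (limma), and no gene of the list was lower. This is 1 of 36 genes, whereas 0.939% of all tested probes were called higher and 0.726% were called lower. Read at the brightest probe of each gene, *Oasl1* was also the only gene of the list in which all KO mice lay above all WT mice. This pattern was seen in 3.69% of all tested probes. Dimmer probes of *Ddx58* and *Ifi35* showed it too, as given below. None of the 36 genes had every KO mouse below every WT mouse, which held for 5.17% of all tested probes. An unadjusted limma p under 0.05 was reached by 5 of 36 genes (13.9%), namely *Ddx58*, *Dhx58*, *Oasl1*, *Rtp4* and *Ifi27*, and by 13.3% of all tested probes. The share of 13.9% is near that of the background.

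The log2 difference was positive in 25 and negative in 11 of the 36 genes, a share of 69.4% positive compared with 41.9% of all 14067 genes tested. The positive count depended on single mice and was between 22 (without KO replicate 2) and 29 (without KO replicate 1 or WT replicate 3). Of 65 further interferon-induced genes, read below, 44.6% were positive. The median over the 36 genes was 0.07, compared with −0.03 over all genes tested, and the values ran from −0.38 for *Ifi27* to 0.71 for *Oasl1*. When the arrays were scaled to spike-in controls in place of the 75th percentile, 32 of 36 genes and 80.7% of all genes tested were positive, and the medians became 0.24 and 0.14. With 4 mice a genotype, the 95% interval of the difference lay within 1.5-fold in either direction for 21 of the 36 genes and reached beyond it for the other 15, on the upper side for 11 and on the lower side for 5. For these 15 genes the interval still holds a difference of 1.5-fold.

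**Figure D1:**
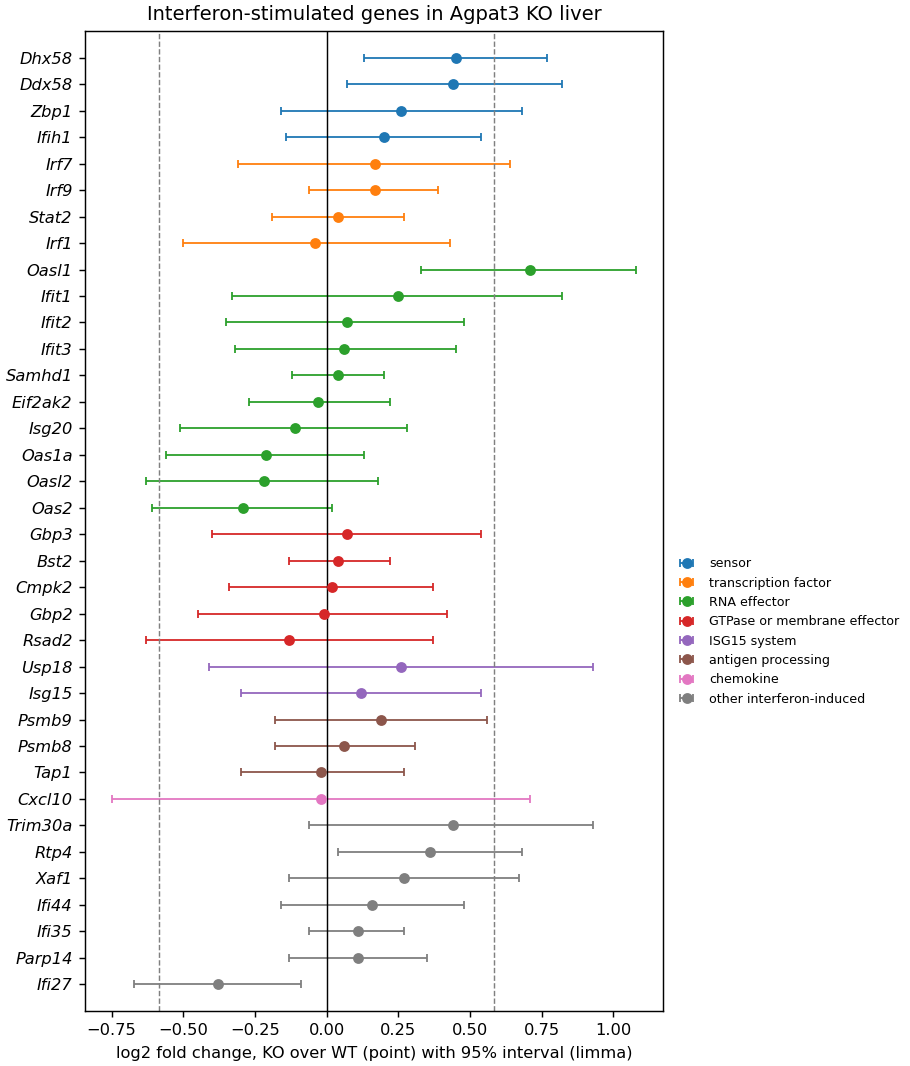
Log2 difference of KO minus WT liver for the 36 tested interferon-stimulated genes (points) with the 95% interval from limma (bars), grouped by role; dashed lines mark 1.5-fold. Only *Oasl1*, at 0.71, has its point beyond a dashed line (with spike-in scaling 4 genes did). The 4 genes grouped as sensors at the top are positive (0.20 to 0.45), as they were under every scaling tried.

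**Figure D2:**
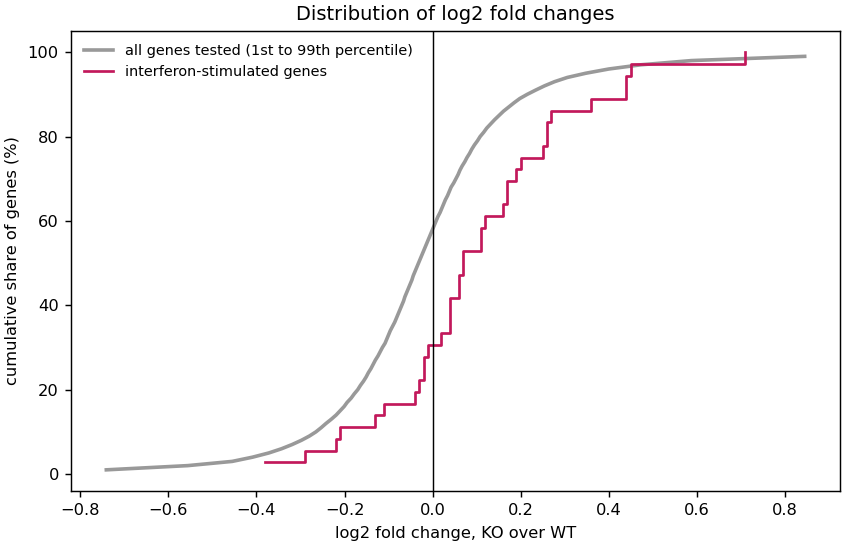
Cumulative share of genes (y axis, percent) against the log2 difference of KO minus WT (x axis) for the 36 interferon-stimulated genes (steps) and for all 14067 genes tested (grey, without the outermost percentiles). The median is 0.07 for the steps and −0.03 for the grey line, and with spike-in scaling these medians were 0.24 and 0.14.

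Oligoadenylate synthetases make a short nucleotide chain that activates RNase L, which then cuts RNA. *Oasl1* encodes a relative that has lost this catalytic activity and is known to restrain translation of the *Irf7* message in mice. The *Oasl1* signal was 2.28, 3.03, 2.83 and 2.64 in WT and 3.22, 3.60, 3.30 and 3.48 in KO. Thus the lowest KO mouse was above the highest WT mouse. The means were 2.69 ± 0.32 in WT and 3.40 ± 0.17 in KO (SD, n = 4 each). The difference was 0.71 ± 0.16 (SE), or 1.63-fold, with a 95% interval of 0.33 to 1.08 and an adjusted p of 0.125 in limma. An exact two-sided permutation test of 4 against 4 mice gave 0.0286, the smallest value this design allows.

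The second *Oasl1* probe gave the same picture at a lower signal, with 0.75, 1.44, 1.15 and 1.07 in WT and 1.68, 1.95, 1.70 and 1.93 in KO. Its difference was 0.71 with an adjusted p of 0.0941 in limma. The call of the brighter probe depended on single mice. Without WT replicate 1 the difference was 0.57, under 1.5-fold, and the adjusted p was 0.173. Without WT replicate 3, KO replicate 2 or KO replicate 4 the difference was 0.75, 0.64 and 0.68, and the adjusted p was 0.239, 0.265 and 0.222. The direction was the same in all of these fits.

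*Oasl2* encodes a relative that kept the enzymatic activity. Its signal was −0.26, 0.27, 0.22 and 0.46 in WT and −0.40, 0.13, −0.05 and 0.12 in KO, with overlapping groups and a difference of −0.22 (95% interval −0.63 to 0.18, adjusted p 0.649 in limma). Within a mouse, the log2 ratio of the *Oasl1* to the *Oasl2* probe was 2.54, 2.76, 2.61 and 2.18 in WT and 3.63, 3.47, 3.35 and 3.36 in KO. The mean ratio differed by 0.93. This pair was set side by side after its values were seen, so that the difference is a description with no test, and the ratio of signals of 2 probes is not a ratio of RNA amounts.

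The other genes of the oligoadenylate pathway and the remaining RNA effectors showed no called difference. *Oas2*, a synthetase, was 0.63, 0.95, 1.23 and 1.05 in WT and 0.52, 0.88, 0.61 and 0.68 in KO, a difference of −0.29 (adjusted p 0.404 in limma) with overlapping groups. *Oas1a* differed by −0.21. The *Ifit* genes, whose products bind the ends of viral RNA, differed by 0.25 for *Ifit1*, 0.07 for *Ifit2* and 0.06 for *Ifit3*. For *Ifit1* the KO mice were themselves far apart, at −0.99 and −0.94 in replicates 1 and 3 and 0.06 and −0.10 in replicates 2 and 4. *Eif2ak2*, the kinase PKR that halts translation, differed by −0.03, *Isg20*, an RNA exonuclease, by −0.11 and *Samhd1*, which removes deoxynucleotides, by 0.04. The interval of *Samhd1*, −0.12 to 0.20, was among the narrowest of the list. Over the 10 tested RNA effectors the median difference was 0.01, with 5 values above 0 and 5 below, and with spike-in scaling it was 0.18, with 7 above 0.

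Sensors of foreign RNA and DNA stand at the start of the response and are themselves induced by it. All 4 genes grouped here as sensors had a positive difference between 0.20 and 0.45, with a median of 0.35, and none was called. This direction held under every scaling and filter tried. It depends on the grouping. *Eif2ak2*, *Oas1a*, *Oas2* and *Oasl2*, placed with the RNA effectors, differed by −0.03, −0.21, −0.29 and −0.22. Of the 10 tested RNA effectors, 5 were above 0 and 5 below. Other sensors, read with the upstream genes below, did not share it throughout and are named after their values were seen. *Mb21d1*, *Tlr9* and *Ifi204* differed by −0.12, −0.12 and −0.17, and *Tlr3* and *Tlr7* each by 0.06. *Ddx58* encodes RIG-I, which binds short double-stranded RNA. Its signal was 1.94, 2.53, 2.35 and 2.56 in WT and 2.48, 3.03, 2.77 and 2.88 in KO. The groups overlapped, since KO replicate 1 fell among the WT mice. The difference was 0.44 ± 0.17 (SE), with a 95% interval of 0.07 to 0.82, an adjusted p of 0.303 in limma and an exact permutation p of 0.0857.

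A second *Ddx58* probe measured 1.12, 1.43, 1.44 and 1.37 in WT and 1.76, 2.17, 1.77 and 1.72 in KO. Here the groups did not overlap, and the difference of 0.52 had an adjusted p of 0.133 in limma but was below 1.5-fold. Another, dim probe differed by 0.41 (adjusted p 0.263), also without overlap. *Dhx58* encodes LGP2, which tunes RIG-I and MDA5. It was −0.26, 0.09, 0.00 and 0.11 in WT and 0.44, 0.59, 0.09 and 0.64 in KO, so that only KO replicate 3 lay within the WT range. The difference was 0.45 ± 0.14 (SE), with a 95% interval of 0.13 to 0.77, an adjusted p of 0.223 in limma and an exact permutation p of 0.0857.

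*Ifih1*, which encodes the long-RNA sensor MDA5, was 1.29, 1.74, 1.58 and 1.88 in WT and 1.59, 1.99, 1.70 and 2.00 in KO. The groups overlapped widely and the difference was 0.20 (adjusted p 0.627 in limma). *Zbp1*, a sensor of left-handed nucleic acid that can trigger cell death, differed by 0.26, with 0.36 at its second probe. With spike-in scaling *Ddx58* and *Dhx58* passed both thresholds, at 0.62 (adjusted p 0.0832) and 0.63 (adjusted p 0.0512), a scaling that moved the median of all genes up as given above.

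**Figure D3:**
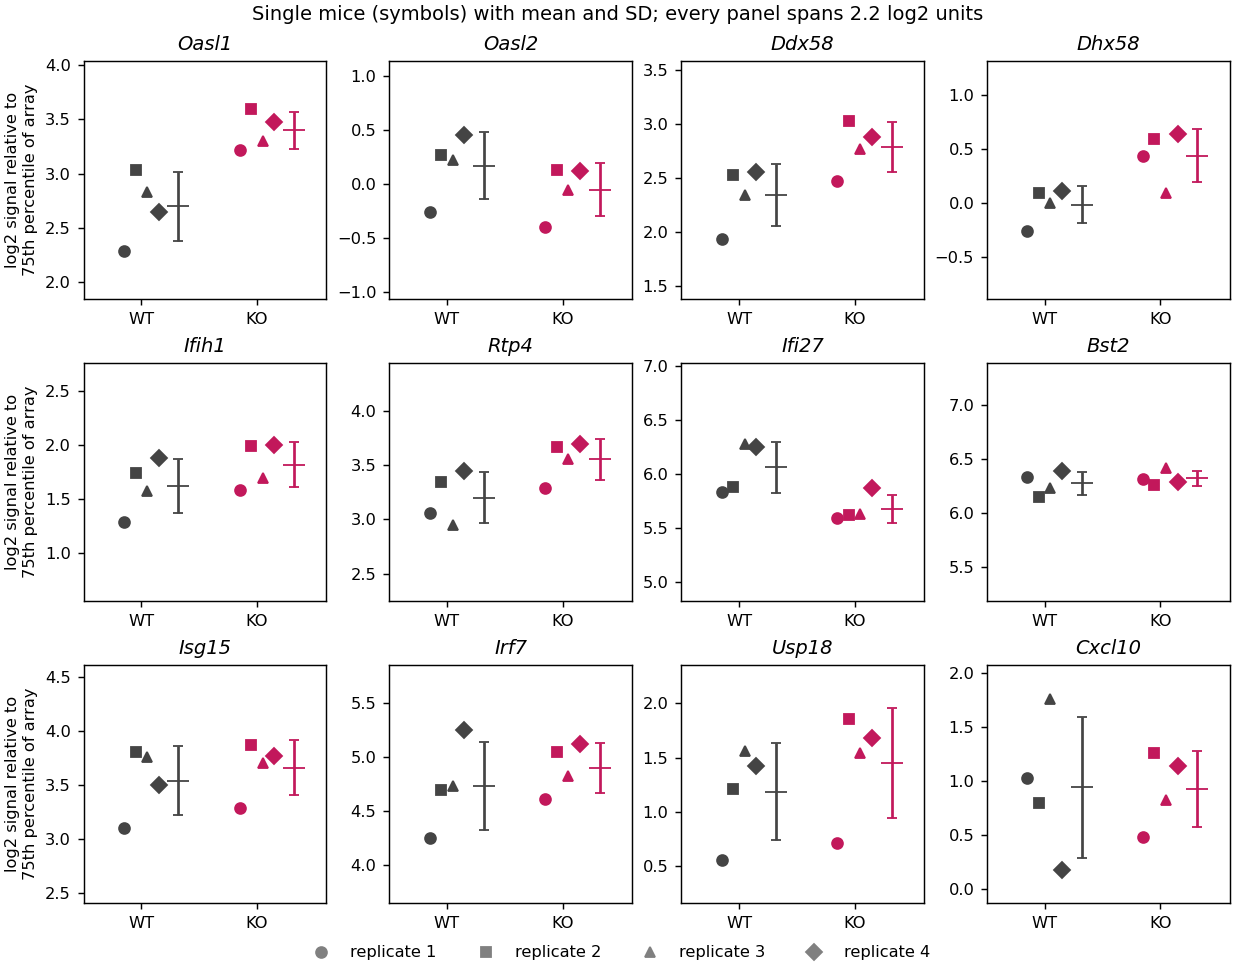
Log2 signal, with 0 at the 75th percentile of each array (y axis), of 12 interferon-stimulated genes in each of the 4 WT (grey) and 4 KO (magenta) mice, with mean and SD to the right; the symbol shape gives the replicate number and every panel spans the same log2 range. The groups are separate for *Oasl1* and overlap in the other 11 panels, and replicate 1 (circle) is often the lowest mouse of its genotype.

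None of the 4 transcription factors of the pathway was called, and their median difference was 0.10 (0.28 with spike-in scaling, when all 4 were positive). *Irf7* drives production of more interferon and is one of the list's probes with the strongest signal. It was 4.25, 4.70, 4.73 and 5.25 in WT and 4.61, 5.05, 4.83 and 5.12 in KO. The difference was 0.17 with a 95% interval of −0.31 to 0.64, and the WT mice spanned the whole KO range. *Irf9* differed by 0.17, *Stat2* by 0.04 and *Irf1*, which acts downstream of interferon gamma, by −0.04. The sign of the *Irf1* value turned with the background correction, with the mean of its probes and with spike-in scaling.

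The ISG15 system tags proteins with a ubiquitin-like modifier. *Isg15*, the modifier, was 3.10, 3.80, 3.76 and 3.50 in WT and 3.29, 3.87, 3.70 and 3.77 in KO, a difference of 0.12 (95% interval −0.30 to 0.54). *Usp18* encodes the enzyme that removes ISG15 and also shuts off the type I receptor. Its mice were among the most scattered of the list, at 0.55, 1.21, 1.56 and 1.42 in WT and 0.71, 1.86, 1.54 and 1.68 in KO. The difference was 0.26 with an interval of −0.41 to 0.93, and replicate 1 was the lowest mouse in both genotypes for both genes.

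Membrane and GTPase effectors lay close to 0, with 5 tested genes between −0.13 and 0.07 and a median of 0.02 (0.19 with spike-in scaling, when all 5 were positive). *Bst2*, or tetherin, which holds budding virus at the cell surface, was 6.33, 6.15, 6.23 and 6.39 in WT and 6.31, 6.26, 6.42 and 6.29 in KO. Its difference was 0.04 and its interval, −0.13 to 0.22, lay within 1.5-fold on both sides. *Rsad2*, which encodes the antiviral enzyme viperin, differed by −0.13 at its brighter probe and by −0.48 at a dimmer one (adjusted p 0.671 in limma). *Cmpk2*, a mitochondrial nucleotide kinase encoded beside *Rsad2*, differed by 0.02. The guanylate-binding proteins *Gbp2* and *Gbp3* differed by −0.01 and 0.07.

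Antigen processing genes supply peptides to MHC class I. *Psmb8* and *Psmb9*, subunits of the immunoproteasome, differed by 0.06 and 0.19, and the peptide transporter *Tap1* by −0.02. *Cxcl10*, the chemokine that draws activated T cells, was the most variable gene of the list, with a within-genotype SD of 0.52. It was 1.03, 0.80, 1.76 and 0.18 in WT and 0.48, 1.26, 0.82 and 1.14 in KO. The difference was −0.02 and its interval of −0.75 to 0.71 was too wide to place it.

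Among the remaining genes, *Ifi27*, a small membrane protein of mitochondria and nucleus, had the lowest difference of the list. It was 5.83, 5.88, 6.28 and 6.25 in WT and 5.59, 5.62, 5.63 and 5.87 in KO. Only KO replicate 4 reached into the WT range. The difference was −0.38 ± 0.13 (SE), with a 95% interval of −0.67 to −0.09, an adjusted p of 0.256 in limma and an exact permutation p of 0.0571. Its second probe differed by −0.26 (adjusted p 0.483).

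*Rtp4*, a receptor-trafficking chaperone, was 3.06, 3.35, 2.95 and 3.45 in WT and 3.29, 3.67, 3.56 and 3.70 in KO. The groups overlapped through KO replicate 1, and the difference was 0.36 ± 0.14 (SE) with an adjusted p of 0.319 in limma. *Trim30a*, a ubiquitin ligase family member, was −0.49, −0.44, −0.34 and −0.16 in WT and 0.63, 0.04, 0.16 and −0.51 in KO. KO replicate 4 was the lowest of all 8 mice, whereas the other KO mice were above every WT mouse. The difference of 0.44 had an adjusted p of 0.437, and without KO replicate 4 it was 0.63 with an adjusted p of 0.185, which passed both thresholds. *Xaf1*, which promotes apoptosis, differed by 0.27, *Ifi44* by 0.16, *Ifi35* by 0.11 and the ADP-ribosyltransferase *Parp14* by 0.11. The dimmer *Ifi35* probe differed by 0.21 (adjusted p 0.292 in limma), with every KO mouse above every WT mouse. Of 16 further tested probes, which belong to 14 of the 36 genes, 13 had the same sign as the brighter probe.

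These genes varied more from mouse to mouse than the typical gene on the array. The median within-genotype SD was 0.25 over the 36 genes and 0.16 over all genes tested, and it ran from 0.07 for *Samhd1* to 0.52 for *Cxcl10*. WT replicate 1 was the lowest WT mouse for 20 of 36 genes (55.6%, compared with 32.3% of all genes tested). KO replicate 1 was the lowest KO mouse for 25 of 36 (69.4%, compared with 34.4%). At the other end, KO replicate 2 was the highest KO mouse for 18 of 36 genes (compared with 17.1% of all genes tested) and WT replicate 3 the highest WT mouse for 16 (44.4%, compared with 18.0%). WT replicate 4 was the highest for 15 (41.7%), near its share of 35.8% of all genes tested. The median deviation from the genotype mean was −0.17 in WT replicate 1 and −0.19 in KO replicate 1, and at most 0.17 in either direction in the other mice. Both replicate 1 arrays lay in slide column 1, and an effect of the column cannot be told apart from variation between mice.

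Kupffer cell markers were low in the same replicate 1 mice. All 12 were measured; 11 were lowest in WT replicate 1 and 12 in KO replicate 1. Their summed level was 126.9 in WT replicate 1 and 156.1 to 200.1 in the other WT mice, and 105.9 in KO replicate 1 and 154.1 to 168.2 in the other KO mice. Of 5 general leukocyte markers, 5 were lowest in WT replicate 1 and 4 in KO replicate 1. Other mice went another way. KO replicate 3 had a Kupffer median deviation of 0.26 and an interferon-stimulated median deviation of −0.06, and in WT replicate 3 these were −0.03 and 0.13. Over the 4 tested monocyte and neutrophil genes the median deviation was −0.45 in WT replicate 1 and −0.77 in KO replicate 1, but also −0.37 in WT replicate 3. WT replicate 1 was the lowest WT mouse for 1 of these 4 genes and WT replicate 3 for 2. In KO replicate 1 the median deviation was also −0.37 over 5 tested T and NK cell genes, −0.30 over 4 tested B cell genes and −0.16 over 7 sinusoidal endothelial cell genes. In WT replicate 1 these were 0.04, 0.05 and 0.00. The low WT mouse for the B cell genes was WT replicate 3, at −0.32. The part of cell content in the values of the interferon-stimulated genes was not tested.

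**Figure D4:**
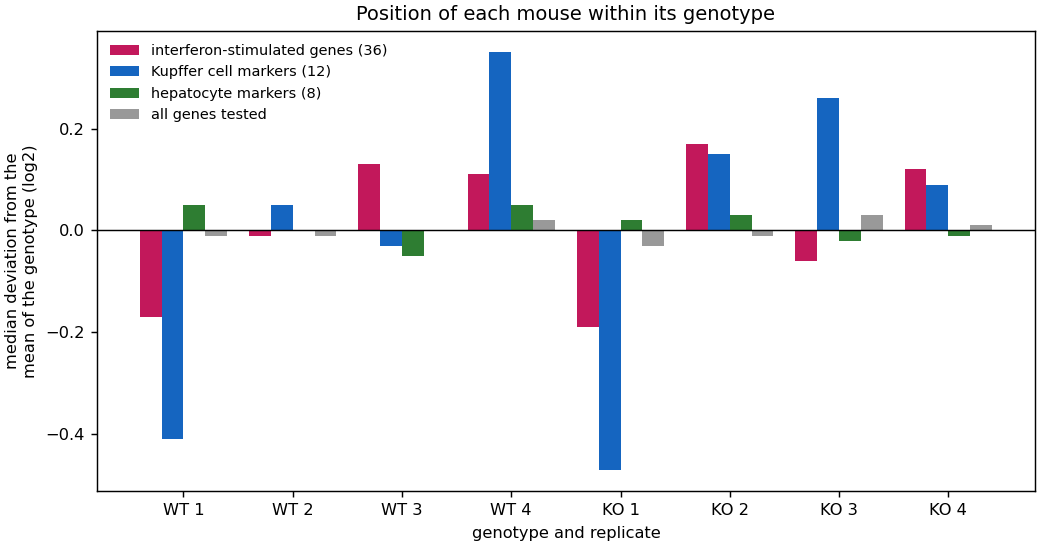
Median log2 deviation of each mouse from the mean of its own genotype (y axis) for the 36 interferon-stimulated genes, 12 Kupffer cell markers, 8 hepatocyte markers and all genes tested. Replicate 1 of both genotypes is low for the interferon-stimulated genes (−0.17 and −0.19) and for the Kupffer cell markers (−0.41 and −0.47), while all genes tested stay within 0.03 of 0.

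Between the genotypes, the Kupffer cell list had a median difference of −0.08 (0.09 with spike-in scaling). *Marco*, a scavenger receptor of macrophages, was its only called gene, at 2.49, 2.87, 3.52 and 3.20 in WT and 1.33, 1.77, 2.25 and 1.84 in KO, and its difference was −1.22 (adjusted p 0.0983 in limma). When replicate 1 of both genotypes was left out, the *Oasl1* difference was 0.63 with an adjusted p of 0.225 in limma, no gene of the list was called, and the median was 0.13. Then 7 of 36 genes (19.4%) had groups of 3 and 3 mice that did not overlap, 3 of them above and 4 below, and so did 17.6% of all tested probes.

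The upstream parts of the pathway were read from lists of their own. Of 18 interferon genes, 3 matched no probe, 8 were too dim to test, among them *Ifnb1* and *Ifng*, and 7 were tested. These 7 were dim as well, with mean WT signals from −3.64 to −1.91. None of them was called, none had an unadjusted p under 0.05 in limma, and the median difference was 0.02. Of 14 receptor, kinase and suppressor genes, 13 were tested and none was called, with a median of −0.09 (0.09 with spike-in scaling). *Ifnar1* and *Ifnar2*, the chains of the type I receptor, differed by −0.06 and −0.04. *Jak1*, a kinase of the receptor, was below in every KO mouse (4.21, 4.11, 4.11 and 4.21 in WT and 4.07, 4.09, 4.07 and 4.05 in KO), by −0.09 with an adjusted p of 0.581 in limma. Such a pattern was seen in 1 of the 13 tested genes (7.69%) and in 5.89% of all genes tested, so that the count is near the background. No gene of this list had an unadjusted p under 0.05 in limma.

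Of 20 genes that sense nucleic acid or carry the signal to the interferon genes, all were tested, none was called and the median was −0.09 (0.08 with spike-in scaling). *Tmem173*, which encodes STING, the adaptor of cytosolic DNA sensing, was 0.37, 0.46, 0.63 and 0.36 in WT and 0.18, 0.12, 0.00 and −0.04 in KO. It was below in every KO mouse, by −0.39 with an adjusted p of 0.121 in limma, and missed the 1.5-fold threshold. *Rnaseh2b*, a subunit of the enzyme that clears RNA from DNA, was above in every KO mouse, by 0.27 (adjusted p 0.16 in limma). Each pattern was seen in 1 of the 20 genes (5.0%), compared with 5.89% of all genes tested below and 3.84% above. These counts are near the background. An unadjusted p under 0.05 was reached by 5 of the 20 genes, compared with 14.0% of all genes tested, the remaining ones being *Ticam1*, *Irf5* and *Trex1* at −0.54, −0.46 and −0.18, which are named after their values were seen.

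Further interferon-induced genes formed a list of 75, of which 65 were tested. None was called, 9 (13.8%) had an unadjusted p under 0.05, as did 14.0% of all genes tested, and the median was −0.03, equal to that of all genes tested. In 3 of them (4.62%) every KO mouse was above every WT mouse and in 3 every KO mouse was below, compared with 3.84% and 5.89% of all genes tested, so that these counts are near the background. *Parp9* and *Dtx3l*, whose products form a complex of an ADP-ribosyltransferase family member and a ubiquitin ligase, were both above. *Parp9* was 2.66, 2.66, 2.64 and 2.66 in WT and 2.82, 3.03, 2.98 and 3.02 in KO, a difference of 0.31 (adjusted p 0.113 in limma). *Dtx3l* differed by 0.20 (adjusted p 0.32). *Trim12c*, *Rnf114* and *Slfn5* were below, by −0.38, −0.19 and −0.20 with adjusted p of 0.188, 0.245 and 0.377. All these differences were under 1.5-fold.

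The promoter letters did not sort those genes that had a window. *Dhx58*, *Rtp4* and *Ifi27*, at 0.45, 0.36 and −0.38, had none and are outside this comparison. So are *Zbp1*, *Oas2*, *Usp18* and *Parp14*. Among tested genes with a RefSeq window, the 14 with an ISRE core had a median difference of 0.05 (−0.21 to 0.44) and the 15 without one a median of 0.07 (−0.22 to 0.71). *Oasl1* was in the second set, and *Ddx58* and *Trim30a*, each at 0.44, were in the first. No match says only that these letters are not in this window.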

How the data were processed

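Whole-liver RNA of 4 WT and 4 *Agpat3* KO mice was labeled with Cy3 and hybridized to 8 arrays. The authors deposited the output of Agilent Feature Extraction 10.7.1.1 for each array, in which the processed signal is a linear, background-corrected intensity. A table of log2 values was deposited too, which equaled log2 of this signal minus the 75th percentile of each array within 0.01 for 100% of values. The arrays have no depth, and their number limits the precision.

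Groups are the genotypes of the labels, and replicate numbers were not taken as pairs. The labels do not describe litters or cages, so that p-values measure the spread between these mice. Controls and outlier spots were left out, the 75th percentile of each array was subtracted from its log2 processed signals, and repeated spots were averaged. A probe was tested if it was well above background in all 4 mice of a genotype (29069 of 56605). KO was set against WT in limma 3.58.1 (R 4.3.3) through lmFit and eBayes, two-sided, with p-values adjusted over all tested probes by the Benjamini-Hochberg method. A call needed more than 1.5-fold and an adjusted p below 0.2. Exact permutation tests used all 70 assignments. The volcano plot of the study uses the same thresholds without stating an adjustment. The test was tried on simulated data.

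The files hold no symbols. Transcript accessions of 32994 probes matched a RefSeq gene table of GRCm38.p6, which also gave the promoter windows, and no coordinates were taken from the array files. Whether probes of similar genes bound each other's RNA was not tested. The list of 39 genes, the pathway and marker lists and the rules for naming genes were chosen with earlier results of these data known. Every gene of the list could be named. Test values were given in full for those called, without overlap or with an unadjusted p under 0.05, and mouse values also for the 3 with the brightest probes. Mouse values of *Oasl2*, *Oas2*, *Ifit1*, *Ifih1*, *Isg15*, *Usp18*, *Cxcl10* and *Trim30a* were added after they were seen. Pathway lists add at most 5 genes without overlap. Some single genes of these lists are not reported here. The alternatives were normexp on the median spot signal (a mean signal was not used here), quantile normalization, median centring, the deposited log2 values, other filters, other thresholds, kept outlier spots, a trended robust fit, an unpaired test without moderation, the mean of probes, a replicate block and each mouse left out. Spike-in scaling and leaving out replicate 1 of both genotypes were added after the data were seen.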

Additional observations from a re-analysis of the deposited data

Results flagged for a closer look

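In 4 of the 72 groups of 4 mice (36 genes in each genotype), 1 mouse stood apart from the other 3 by a gap that filled most of the range of the group. Chance alone marks about 1 in 20 groups, and over all genes tested the share was 6.01%. *Irf1* was 3.15 in WT replicate 1 and 3.99 to 4.14 in the other WT mice. *Isg20* was 0.98 in WT replicate 4 and 1.53 to 1.62 in the others. *Gbp2* was 0.28 in WT replicate 3 and −0.46 to −0.34 in the others. *Ifi27* was 5.87 in KO replicate 4 and 5.59 to 5.63 in the other KO mice.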

How the results depend on the processing

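The count of interferon-stimulated genes called lower was 0 under every alternative, and *Oasl1* was higher in KO under every alternative, by 0.57 to 0.88 (adjusted p 0.0411 to 0.303). The count called higher was 1 as reported and 0 with no filter, in the unpaired test, at an adjusted p under 0.05 and without replicate 1 of both genotypes. It was 4 with spike-in scaling (*Ddx58*, *Dhx58*, *Oasl1* and *Trim30a*), in which the spike-ins themselves differed by −0.18 and all tested probes gave 891 higher and 157 lower calls, compared with 273 and 211. Leaving out each mouse gave 0 to 1, and without KO replicate 4 the called gene was *Trim30a* in place of *Oasl1*. Genes without overlap numbered 1 of 36 as reported (8.86% of all tested probes in either direction), 2 with normexp (8.83%), with median centring (9.37%) and with the mean of probes (9.58% of all genes tested), 8 with spike-in scaling (17.9%), 7 without replicate 1 of both genotypes (17.6%) and 1 to 5 with each mouse left out (11.5% to 15.2%). The median difference was 0.24 with spike-in scaling and 0.04 to 0.16 with each mouse left out. Otherwise the cause was not tested. Over all tested probes, the unpaired test called 165 higher and 104 lower, no filter 122 and 131, normexp 180 and 65, and an adjusted p under 0.05 82 and 35; 534 and 451 passed an unadjusted p under 0.2, and 557 and 645 passed with no minimum fold change.

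Signs turned only for genes whose reported difference was between −0.13 and 0.12. With normexp *Irf1* was 0.04, *Eif2ak2* 0.00 and *Gbp2* 0.09. With median centring *Cmpk2* was −0.02. With the mean of probes *Irf1* was 0.04 and *Tap1* 0.06. With spike-in scaling *Irf1* was 0.14, *Eif2ak2* 0.15, *Isg20* 0.06, *Gbp2* 0.16, *Rsad2* 0.05, *Tap1* 0.16 and *Cxcl10* 0.16. Without replicate 1 of both genotypes *Eif2ak2* was 0.01, *Gbp2* 0.03, *Rsad2* 0.00 and *Cxcl10* 0.16. With each mouse left out the ranges that crossed 0 were −0.05 to 0.25 for *Gbp3*, −0.03 to 0.24 for *Isg15*, −0.27 to 0.25 for *Cxcl10*, −0.26 to 0.07 for *Irf1*, −0.04 to 0.22 for *Ifit2*, −0.09 to 0.13 for *Cmpk2*, −0.11 to 0.06 for *Tap1*, −0.09 to 0.16 for *Gbp2*, −0.04 to 0.09 for *Stat2*, −0.11 to 0.05 for *Eif2ak2*, −0.06 to 0.21 for *Ifit3* and −0.26 to 0.02 for *Rsad2*.

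Mice with the same replicate number, which also shared a slide column, had deviations that correlated at 0.331, −0.109, 0.103 and 0.319 over tested probes. The values of replicates 1 and 4 were the highest of all WT and KO combinations. WT replicate 3 also correlated best with the KO mouse of its number, whereas WT replicate 2 correlated best with KO replicate 3 (0.27). The labels name no pairs, so the reported fit used none. What lies behind these correlations was not tested. With the replicate block 1 gene was called higher and 0 lower, the median was 0.07 and *Oasl1* had an adjusted p of 0.0948 in limma, and all tested probes gave 327 and 265 calls. In this fit the adjusted p in limma was 0.112 for *Ddx58*, 0.184 for *Ifi27*, 0.193 for *Rtp4* and 0.195 for *Dhx58*. As reported these were 0.303, 0.256, 0.319 and 0.223. All 4 differences stayed under 1.5-fold. Dim probes such as *Oas3* could not be placed at this signal over background.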

Other observations

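MHC class II genes, which interferon gamma induces through *Ciita* in antigen-presenting cells, were all 7 tested and had a difference from −0.35 for *H2-Eb1* to −0.04 for *H2-DMa*, with a median of −0.24. With spike-in scaling 2 of the 7 were positive and the median was −0.07. None was called and none had an unadjusted p under 0.05 in limma. The 11 tested genes of MHC class I presentation had a median of 0.02, 6 of them positive, and none was called; *H2-Q4*, at −0.20, was the only one with an unadjusted p under 0.05. With spike-in scaling 10 of these 11 were positive and the median was 0.20. Markers of other cell types that respond to interferon gave medians of −0.24 over 5 general leukocyte genes, −0.35 over 3 dendritic cell genes, −0.14 over 4 B cell genes, −0.04 over 5 T and NK cell genes, −0.42 over 4 monocyte and neutrophil genes, 0.01 over 4 plasmacytoid dendritic cell genes, 0.00 over 7 sinusoidal endothelial cell genes and −0.08 over 8 stellate cell genes. With spike-in scaling, which moved the median of all genes tested to 0.14, these medians were, in the same order, −0.07, −0.17, 0.03, 0.14, −0.24, 0.19, 0.18 and 0.10. None of these markers was called, and *Coro1a*, *Clec9a*, *Cd22*, *Lyve1* and *Lrat* were those with an unadjusted p under 0.05 in limma, at −0.33, −0.35, −0.26, −0.52 and 0.50. Only tested genes enter these medians. The dendritic, plasmacytoid dendritic and B cell lists held 6 genes each, the monocyte and neutrophil list 7 and the T and NK cell list 9. Mean WT signals within a list ranged widely, from −3.45 for *Spib* to 7.27 for *Siglech* and from −1.10 for *S100a8* to 6.53 for *Csf3r*. Whether each probe read its cell type was not tested.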
